A study of Arabidopsis thaliana with 4 samples.

Results

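Expansins, xyloglucan endotransglucosylase/hydrolases (XTH), family 9 cellulases (GH9) and cellulose-synthase-like enzymes (CSL) were followed on 4 Affymetrix arrays of Arabidopsis thaliana seedlings. The members are the probe sets that name 1 gene whose symbol, without a leading AT, begins with EXP, EXL, XTH, XTR, GH9 or CSL. The root hair genes EXPA7 (EXP7), EXPA18 and GH9C1 were left out, as were 4 probe sets that name several genes. This gave 47 probe sets of 47 genes, among 22810 probe sets on the array, of which 13513 name 1 gene and together cover 13356 genes. They comprise 8 alpha-expansins, 4 beta-expansins, 4 expansin-like genes, 9 XTH genes, 14 GH9 genes and 8 CSL genes. No measured difference was used to choose them, although results of these arrays were already known when the families were picked.

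Of the 4 arrays, 2 came from Col-0 plants titled as overexpressing At1g54160 and 2 from wild type. At1g54160 encodes NFYA5 (NF-YA5), a subunit of the NF-Y transcription factor complex that binds CCAAT boxes. All seedlings were 2 weeks old, untreated, and had grown at 22 °C on MS agar with 3% sucrose in days of 16 h light and 8 h dark. In the series' design text, however, the first group is an nfya5 mutant. Titles were followed here, and NFYA5 expression could not serve as a check, because the probe annotation used lists 0 probe sets for At1g54160. The promoter behind the overexpression, the number of lines and the number of seedlings pooled per array are not given in the sources used here. Whether replicates were separate cultures is not stated in the labels, so p-values cover no more than the spread between these 4 arrays, and that spread may be technical. Log2 signals correlated at 0.988 between the overexpressor arrays, at 0.989 between the wild type arrays and at 0.979 to 0.985 across the groups. The green tissue genes RCA, LHCB4.1 and LHCB4.2 had strong signals on every array, with RCA at 16394.9 and 18676.4 in the overexpressor, against 18028.6 and 18450.4 in wild type. The remaining green tissue marker, LHCB4.3, had 791.7 and 806 in the overexpressor, against 577.4 and 551.2 in wild type (log2 fold change 0.47 ± 0.10, limma adjusted p = 0.060), so that its groups did not overlap.

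Growing plant cells are held by cellulose microfibrils tied together by xyloglucan and embedded in pectin. Expansins loosen this network without cutting it, and XTH enzymes cut xyloglucan chains and rejoin them to other chains or to water. GH9 enzymes cut beta-1,4-glucans such as cellulose, and CSL proteins make the backbones of wall polysaccharides in membranes. In seedlings these families act where cells enlarge, in roots, hypocotyls and young leaves.

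None of the tested wall-loosening and wall-building genes passed the test between the overexpressor and wild type arrays. The member with the largest difference was EXLB1, an expansin-like gene, which was 1.56-fold higher in the overexpressor arrays on the signal + 50 scale and narrowly missed the threshold. The next smallest p was that of CSLD2, which on the same scale stood at 0.813 times the wild type level, with an adjusted p of 0.17. Of the 47 members, 25 averaged 100 signal units or more on the 4 arrays and entered the test, made over all 13961 probe sets at that level. By limma's moderated test 0 of the 25 had an adjusted p under 0.05. Over all tested probe sets 180 passed, which is 1.29%. At an unadjusted p under 0.05 there were 2 members of 25, EXLB1 and CSLD2, against 16.5% of all tested probe sets. The members had a median log2 fold change (overexpressor minus wild type) of -0.06, with 10 positive and 15 negative, and all tested probe sets had a median of 0.02. In whole seedlings, fewer cells of a type and less RNA per cell cannot be told apart.

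A difference that misses the threshold does not show equal expression, so the 95% intervals of the fold changes are given as bounds. On the log2(signal + 50) scale, 22 of the 25 intervals lay wholly inside a 1.5-fold change in either direction, against 81.5% of all tested probe sets. The exceptions were EXLB1, EXLA2 and EXPA4. All 25 intervals lay inside a 2-fold change. With 1 or 16 added to the signals in place of 50, 24 did, and not all did in some fits with an array left out. Each interval was taken on its own, and the added 50 narrows the intervals of dim probe sets. Without overexpressor replicate 2, 12 intervals lay inside 1.5-fold.

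**Figure D1:**
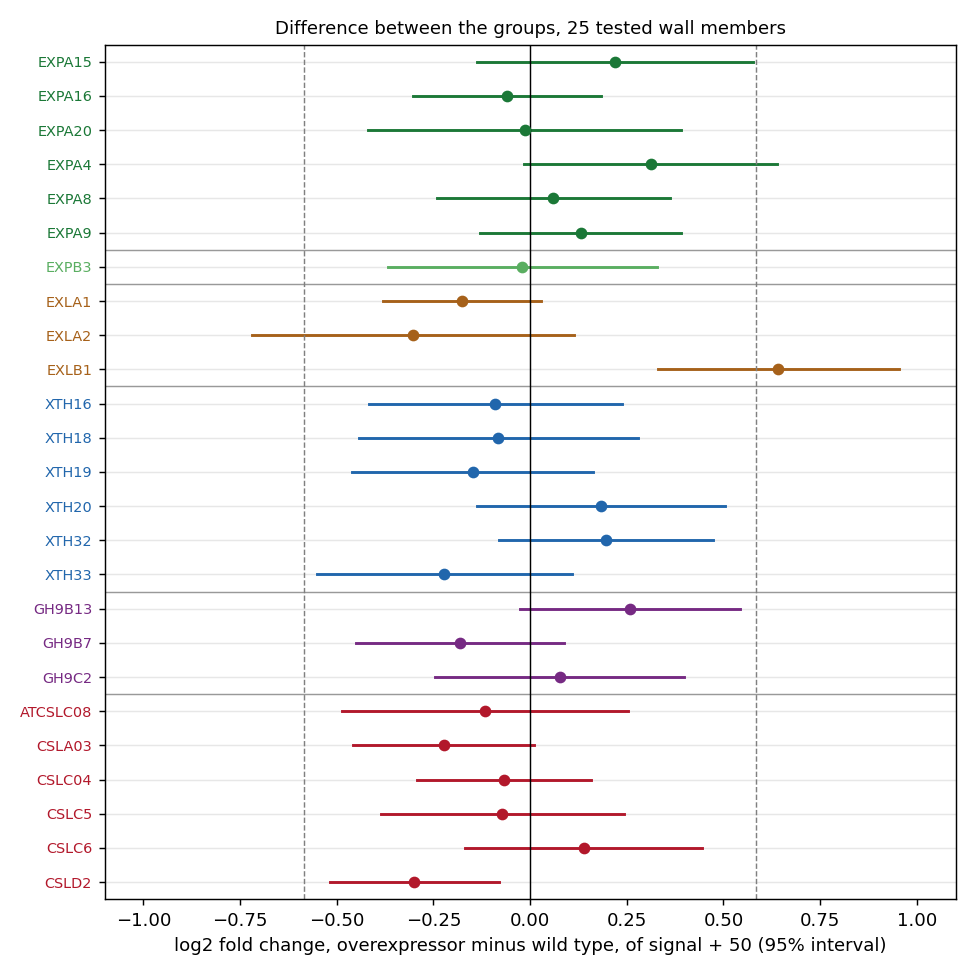
Log2 fold change of signal + 50, overexpressor minus wild type, for each of the 25 tested members (points), with its 95% interval from limma (bars), coloured by enzyme class. Dashed lines mark a 1.5-fold change in either direction. The intervals of EXLB1, EXLA2 and EXPA4 cross a dashed line, and those of EXLB1 and CSLD2 do not reach 0.

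Between replicates the members were about as uneven as between groups. For 19 of the 25 the absolute log2 difference between the group means was smaller than the larger of the replicate differences within a group, against 65.3% of all tested probe sets. The median absolute log2 difference was 0.16 between the overexpressor arrays and 0.15 between the wild type arrays, and the median absolute difference between the groups was 0.15. The overexpressor arrays lay wholly above both wild type arrays for 6 members and wholly below them for 5, so that 11 did not overlap. Over all tested probe sets 48.1% did not overlap, with 26.1% above and 22.0% below.

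**Figure D2:**
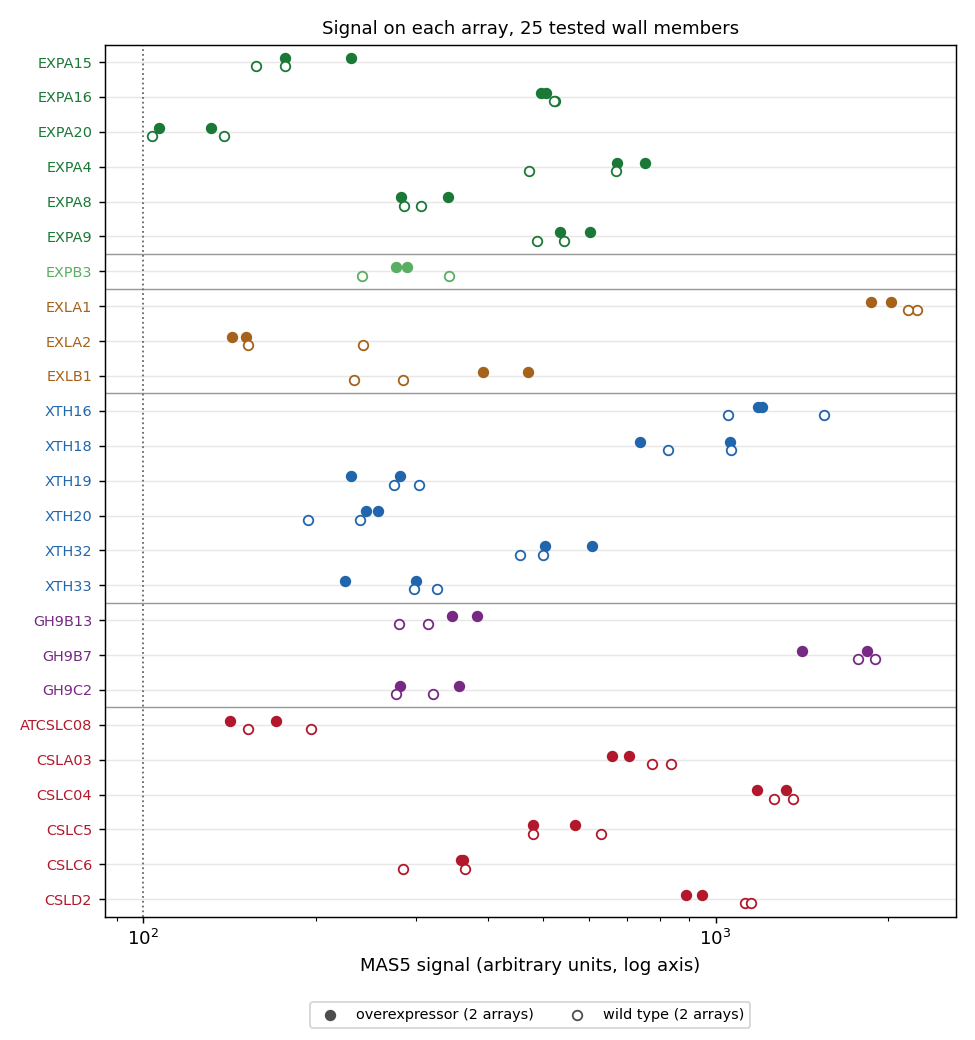
MAS5 signal in arbitrary units (log axis) of the 25 tested members on the overexpressor arrays (filled) and the wild type arrays (open), 2 each. The dotted line marks the signal of 100 that the 4-array mean had to reach. Filled and open points are apart for 11 members, by the widest log2 margin for EXLB1, and mixed for 14.

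The alpha-expansins, the classic wall-loosening proteins that act at acid pH, had 6 tested members and a median log2 fold change of 0.10. Of these 4 were positive and 2 negative. By limma 0 passed, and 0 reached an unadjusted p under 0.05. EXPA4 (AT2G39700) measured 752.1 and 672.8 units in the overexpressor, against 670 and 472.6 units in wild type. The overexpressor arrays were the higher ones but came within a few units of wild type replicate 1, and wild type replicate 2 stood apart from the other arrays. Between the groups the log2 fold change was 0.31 ± 0.15 (SE, adjusted p = 0.32), and it ranged from 0.08 without wild type replicate 2 to 0.54 without wild type replicate 1.

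EXPA15 (AT2G03090) had signals of 230.6 and 177.1 in the overexpressor and of 157.6 and 176.7 in wild type. Overexpressor replicate 1 was the high array, and the other overexpressor array was level with wild type replicate 2. Its log2 fold change was 0.22 ± 0.16 (adjusted p = 0.55), and leaving out overexpressor replicate 1 gave 0.066 and leaving out overexpressor replicate 2 gave 0.37. EXPA9 (AT5G02260) had 604.4 and 534.5 in the overexpressor, against 487.2 and 544.3 in wild type. The groups overlapped, and the log2 fold change was 0.13 ± 0.12 (adjusted p = 0.64).

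The remaining tested alpha-expansins, EXPA16, EXPA20 and EXPA8, had log2 fold changes of -0.06, -0.01 and 0.06. EXPA16 (AT3G55500) had the tightest replicates of this class, with 505.1 and 495.3 in the overexpressor and 524.7 and 521.8 in wild type. Its groups did not overlap although the difference was small, and the 95% interval ran from -0.30 to 0.18 (log2 fold change -0.06 ± 0.11, adjusted p = 0.84).

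Of the beta-expansins, the class that includes the grass pollen allergens, EXPB3 (AT4G28250) was the 1 tested gene. Its signals were 276.9 and 289.2 on the overexpressor arrays, between the 240.7 and 342.1 of the wild type arrays. The wild type arrays thus bracketed the overexpressor, and the log2 fold change was -0.02 ± 0.16 (adjusted p = 0.97, 95% interval -0.37 to 0.33).

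The expansin-like genes encode proteins with the expansin fold whose loosening activity is not established, and their values had both signs, with 0 members past the threshold. EXLB1 (AT4G17030), the EXLB gene of Arabidopsis, measured 470.4 and 392.9 units in the overexpressor, against 233.4 and 284.1 units in wild type. Both overexpressor arrays lay above both wild type arrays, with a gap of over 100 units. The means were 431.65 ± 54.8 in the overexpressor and 258.75 ± 35.9 in wild type (SD, n = 2), and their log2 difference was 0.64 ± 0.14 (SE; 95% interval 0.33 to 0.95). The adjusted p over all tested probe sets was 0.058 by limma.

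The call on EXLB1 changed with the arrays and the variance prior, among other settings. It passed without overexpressor replicate 2 (adjusted p = 0.0097, log2 fold change 0.76), where 3.5% of all tested probe sets passed. It also passed without wild type replicate 2 (adjusted p = 0.032, log2 fold change 0.76), where 2.39% passed, and with a robust variance prior (adjusted p = 0.047), where 1.58% passed. It did not pass without overexpressor replicate 1 (adjusted p = 0.18, log2 fold change 0.53) or without wild type replicate 1 (adjusted p = 0.15, log2 fold change 0.52), where 1.65% and 0.723% of all tested probe sets passed. With a constant variance prior (adjusted p = 0.13) or no filter on signal (adjusted p = 0.25) EXLB1 was farther from the threshold, and 0.0645% and 0.0044% of all tested probe sets passed there. EXLB1 was the 1 member to pass in any of these settings.

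The tested EXLA genes had negative values. EXLA1 (AT3G45970) had 2030.2 and 1868.5 in the overexpressor, against 2248.2 and 2166.3 in wild type. Both overexpressor arrays were below both wild type arrays, and the log2 fold change was -0.18 ± 0.09 (adjusted p = 0.38). EXLA2 (AT4G38400) had 151.2 and 143.1 in the overexpressor, against 242.4 and 152.3 in wild type. Wild type replicate 1 was the one high array and the other 3 were within 10 units. For EXLA2 the log2 fold change was -0.30 ± 0.19 (adjusted p = 0.46), which shrank to -0.04 without wild type replicate 1. The difference between EXLB1 and the EXLA genes in response was not tested.

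The XTH genes, which remodel xyloglucan, had 6 tested members with a median log2 fold change of -0.09, of which 2 were positive and 4 negative. By limma 0 passed and 0 reached an unadjusted p under 0.05, and for all 6 the difference between the groups was smaller than a replicate difference. XTH32 (AT2G36870), of the subgroup in which xyloglucan hydrolysis was found, had 608.8 and 503 in the overexpressor, against 500.1 and 455.1 in wild type. The groups came within a few units of each other without overlapping, and the log2 fold change was 0.20 ± 0.13 (adjusted p = 0.48). XTH33 (AT1G10550), which encodes a membrane-anchored XTH, had 224.8 and 300 in the overexpressor, against 326.3 and 297.5 in wild type. Overexpressor replicate 1 was the low array, and the log2 fold change was -0.22 ± 0.15 (adjusted p = 0.51). Leaving out overexpressor replicate 1 gave -0.047, and leaving out overexpressor replicate 2 gave -0.40.

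XTH18, XTH19 and XTH20 are close relatives known from roots. XTH20 (AT5G48070) had 245.2 and 257.2 in the overexpressor, against 193.6 and 239 in wild type. The groups did not overlap, and the log2 fold change was 0.18 ± 0.15 (adjusted p = 0.58). XTH18 (AT4G30280) had 737.6 and 1058.5 in the overexpressor, against 826.4 and 1065.9 in wild type. In both groups replicate 2 was the higher array, and the log2 fold change was -0.08 ± 0.16 (adjusted p = 0.85). XTH19 is the next protein-coding gene to XTH18 in the TAIR10.1 gene table, and its log2 fold change was -0.15 ± 0.14 (adjusted p = 0.66). The IDs of both probe sets lack the mark of shared probes, though how far each binds the other's transcript is unknown here.

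XTH16 (AT3G23730) had 1205.1 and 1185.4 in the overexpressor, against 1051.4 and 1544.3 in wild type. The overexpressor arrays agreed closely and lay between wild type arrays that differed by 0.53 on the log2 scale, the widest wild type difference among the 25 tested members. XTH16 had a group difference of -0.09 ± 0.15 (log2 fold change, adjusted p = 0.81), with values of -0.36 without wild type replicate 1 and 0.18 without wild type replicate 2.

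Of the 14 GH9 genes, 3 were tested, with a median log2 fold change of 0.08, and by limma 0 passed and 0 reached an unadjusted p under 0.05. GH9B13 (AT4G02290), which encodes a cellulase of the secreted B subclass, had 382.4 and 346.7 in the overexpressor, against 313.7 and 279.3 in wild type. Both overexpressor arrays were above both wild type arrays, and the log2 fold change was 0.26 ± 0.13 (adjusted p = 0.35). GH9B7 (AT1G75680), of the same subclass, had 1414.7 and 1837.2 in the overexpressor, against 1773.8 and 1897.7 in wild type. Overexpressor replicate 1 was low and replicate 2 fell between the wild type arrays. The log2 fold change of GH9B7 was -0.18 ± 0.12 (adjusted p = 0.51), and 0.0019 without overexpressor replicate 1.

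GH9C2 (AT1G64390), of the C subclass whose proteins end in a carbohydrate-binding module, had 356.2 and 280.9 in the overexpressor, against 320.9 and 275.9 in wild type. The groups overlapped, and the log2 fold change was 0.08 ± 0.15 (adjusted p = 0.84). Its relative GH9C1, one of the root hair genes left out of the families, had 86.2 and 129.7 in the overexpressor, against 176.4 and 162.6 in wild type.

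The CSL genes had 6 tested members with a median log2 fold change of -0.09, of which 1 was positive and 5 negative. CSLD2 (AT5G16910), which belongs to the subfamily nearest to the cellulose synthases and is needed for normal root hairs, had 887 and 947 in the overexpressor, against 1123.9 and 1155.3 in wild type. Both overexpressor arrays were below both wild type arrays, and the replicates within each group were close. The means were 917 ± 42.4 in the overexpressor and 1139.6 ± 22.2 in wild type (SD, n = 2), and their log2 difference was -0.30 ± 0.10 (SE; 95% interval -0.52 to -0.08). It did not pass over all tested probe sets in limma's test (adjusted p = 0.17), and its adjusted p lay between 0.095 and 0.52 over the alternatives.

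The root hair genes gave low values beside that of CSLD2, with 1 exception. GH9C1 had a difference of -0.49 ± 0.18 (log2 fold change, adjusted p = 0.21) and, for EXPA18, -0.37 ± 0.17 (adjusted p = 0.31), whereas EXPA7 had 0.11 ± 0.15 (adjusted p = 0.77). These 3 genes were all the root hair markers with a probe set that names 1 gene. Their summed signal was 462.3 and 501.5 in the overexpressor, against 531.3 and 627.8 in wild type. The root gene PYK10 had 12419.2 and 13077.9 in the overexpressor, against 11463.2 and 12107.1 in wild type. The part of root hairs in the value of CSLD2 was not tested.

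CSLA03 (AT1G23480), of the subfamily that makes glucomannan backbones, had 659.8 and 706.4 in the overexpressor, against 774.8 and 837.4 in wild type. As for CSLD2, the overexpressor arrays were the lower ones. The log2 fold change was -0.22 ± 0.11 (adjusted p = 0.32, 95% interval -0.46 to 0.01).

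The CSLC genes make the glucan backbone of xyloglucan, the substrate of the XTH enzymes, and for all 4 tested members the groups overlapped. CSLC04 (AT3G28180) had 1183.4 and 1327.2 in the overexpressor, against 1364.9 and 1267.3 in wild type, a log2 fold change of -0.07 ± 0.10 (adjusted p = 0.79). Its 95% interval, from -0.29 to 0.16, was among the narrower ones. CSLC6 (AT3G07330) had 358.5 and 361.9 in the overexpressor, against 284.4 and 365.2 in wild type, where replicate 1 was the low array. The log2 fold change of CSLC6 was 0.14 ± 0.14 (adjusted p = 0.67). CSLC5 and ATCSLC08 had values of -0.07 and -0.12.

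Set out by array, the classes followed no common order. Relative to each gene's 4-array mean, the mean log2(signal + 50) of the CSL members was -0.08 and -0.02 in overexpressor replicates 1 and 2, against -0.03 and 0.14 in wild type replicates 1 and 2. Wild type replicate 2 was thus the array that stood highest for the CSL members, and wild type replicate 1 was level with the overexpressor. Of the alpha-expansins the same means were 0.07 and 0.04 in the overexpressor, against -0.01 and -0.10 in wild type, so that the mean was lowest on wild type replicate 2. Only EXPA4 and EXPA20 were themselves lowest on that array. Over the XTH members they were -0.09 and 0.06 in the overexpressor and -0.05 and 0.08 in wild type, with the higher mean on replicate 2 in both groups. Gene by gene, replicate 2 was the higher array for 4 of the 6 XTH members in the overexpressor and for 3 in wild type.

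**Figure D3:**
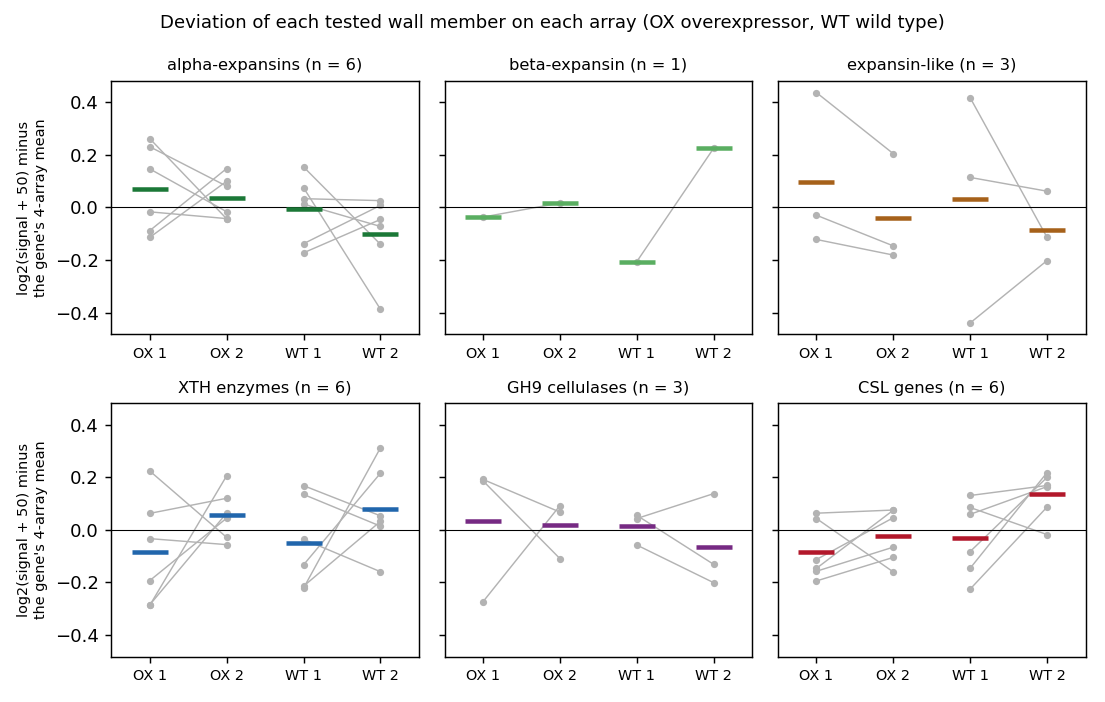
Deviation of log2(signal + 50) from the gene's 4-array mean, for each tested member (grey points, joined within a group) on overexpressor (OX) and wild type (WT) replicates 1 and 2, by class. Coloured bars are class means. The CSL mean is highest on wild type replicate 2 (0.14), where the alpha-expansin mean is lowest (-0.10).

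The other 22 members had a mean signal under 100 and were not tested. They were 11 of the 14 GH9 genes, 3 of the 4 beta-expansins, 3 XTH genes, 2 alpha-expansins, 2 CSL genes and the expansin-like gene EXLA3. Their signals ran from 0.9 to 102.6, and 21 of them stayed under 100 on every array, the exception being GH9B8 with 102.6 on overexpressor replicate 1. No detection calls were used here, so such signals do not tell a low transcript level from none. The members nearest to the limit were CSLC12 and GH9B8 below it, with mean signals of 73.6 and 83.8, and EXPA20 and ATCSLC08 above it, with 120 and 165.

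Of these 22 the groups did not overlap for 7, with the overexpressor above for 4 and below for 3, and 34.8% of all probe sets under the limit did not overlap. EXLA3 (AT3G45960), the protein-coding neighbour of EXLA1, had 60.6 and 56.5 in the overexpressor, against 67 and 69.6 in wild type. Like EXLA1 and EXLA2 it was lower on both overexpressor arrays. XTH29 (AT4G18990) had 13.4 and 29.6 in the overexpressor, against 33.1 and 46.8 in wild type. GH9B16 (AT4G38990) had 55 and 14.1 in the overexpressor, against 7.3 or less on both wild type arrays. GH9B16 is followed by GH9B17 and GH9B18 as the next protein-coding genes, and both of those overlapped between the groups. XTH26, known from the root hair zone, stayed at 5.9 or less on all 4 arrays.

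**Figure D4:**
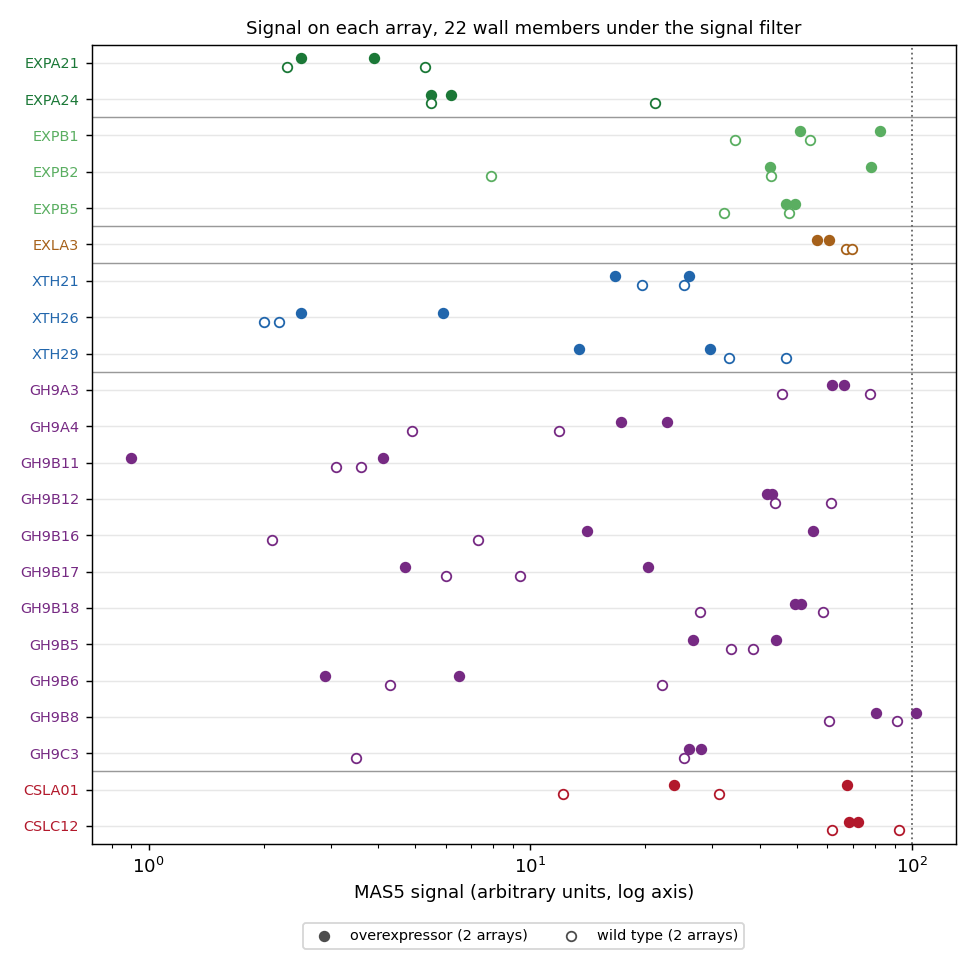
MAS5 signal in arbitrary units (log axis) of the 22 members whose 4-array mean was under 100 (dotted line), on the overexpressor arrays (filled) and the wild type arrays (open), 2 each. Replicates of a group lie far apart for many of them, and all points but that of GH9B8 at 102.6 lie left of the line.

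Nor did the other tested genes of wall synthesis and modification pass. By platform symbol 32 further probe sets matched. They were 23 of the list made for xyloglucan, 6 of the pectin list, 2 IRX15 xylan genes and 1 of cellulose synthesis. The list made for xyloglucan held BGAL16, which was not tested, and 22 genes of the TBL family. These were taken by symbol prefix, and which polymer each acts on was not examined. No probe set naming 1 gene matched the symbol prefixes of the xylan and mannan list. The wall protein list matched no gene of the wall, so neither list was tested. Genes of xylan or mannan under other symbols, such as IRX15-L and CSLA03, were tested. Of the 32, 22 were tested and 0 passed in either direction in limma's test, against 1.29% of all tested probe sets. The median log2 fold change of the 22 was -0.03, with 10 positive and 12 negative. An unadjusted p under 0.05 was reached by 1 of the 22, against 16.5% of all tested probe sets. That gene was TBL25 (AT1G01430), of the TBL family of wall polysaccharide acetyltransferases, with 1368.2 and 1511.3 in the overexpressor, against 1641.7 and 1723.3 in wild type. Its log2 fold change was -0.22 ± 0.10 (adjusted p = 0.29). The TBL family held 15 of the 22 tested genes, 7 positive and 8 negative. These were all the tested genes of the list made for xyloglucan, so that list says nothing of other xyloglucan genes.

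COB (COBRA, AT5G60920), which is needed for oriented cellulose deposition, had 4475.2 and 4439 in the overexpressor, against 4439.3 and 5677.6 in wild type. Wild type replicate 2 was the high array and the other 3 were level, and the log2 fold change was -0.17 ± 0.11 (adjusted p = 0.51). Of 5 tested pectin genes 0 passed and 0 had an unadjusted p under 0.05, and GAUT15, of the galacturonosyltransferase family, had the smallest adjusted p (log2 fold change -0.20 ± 0.14, adjusted p = 0.54). For IRX15-L, which acts in xylan synthesis, the log2 fold change was -0.14 ± 0.16 (adjusted p = 0.70). None of the xylem markers had a probe set that names 1 gene, so they were not analysed here.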

How the data were processed

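The deposited values are linear intensities from MAS5, named in the submitters' processing notes, and per the labels' descriptions the authors scaled every array to a target of 500. Such scaling hides a shift common to most transcripts. Groups came from the sample titles. Gene names came from the platform annotation, and all 47 members matched the TAIR10.1 gene table, which served for names and neighbours. No coordinates are printed, since the probes' genome build is not given in the sources used here.

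Control probe sets and those with a mean signal under 100 were left out, 50 was added and log2 taken. Groups were compared with limma 3.58.1 in R 4.3.3 (lmFit, eBayes with an intensity trend), two-sided, with Benjamini-Hochberg adjustment over 13961 probe sets. With 2 arrays against 2, exact permutation p-values start at 0.333. The fit was also run on simulated arrays with independent noise, and no result here draws on that run. The 15 alternatives are other pseudocounts, filters, normalizations, variance priors, a replicate block, and each array left out. Members, lists and tests were chosen with earlier results of these data known. Members with an unadjusted p under 0.05, the 3 smallest p and the 2 highest signals per class are given on all arrays, and EXPA16, XTH29, GH9B16, EXLA3 and XTH26 were added after their values were seen. The symbol prefixes for other wall genes also took PMEAMT, PRP39 and PRP39-2, which are no wall genes and were left out.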

Additional observations from a re-analysis of the deposited data

How the results depend on the processing

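The count of 0 members past the threshold became 1, EXLB1, with a robust variance prior, with the replicate block, without wild type replicate 2 and without overexpressor replicate 2 (range 0 to 1 over the arrays left out), and stayed 0 in the other 11 settings. Over all probe sets the 180 calls became 1 with no filter on signal, 9 with a constant variance prior, 56 among unshared probe sets naming 1 gene (where fewer were tested), 1075 with the replicate block and 101 to 489 with an array left out. The replicate block gave EXLB1 an adjusted p of 0.00036. The replicates share only a number: their differences correlated across groups at 0.06 over all tested probe sets and at 0.12 over the tested members, and 2 pairs are too few to show a pairing. The median over tested members was -0.016 with no filter, where all 47 members entered, and -0.058 to 0.024 with an array left out. With no filter the alpha-expansin and beta-expansin medians were 0.023 and 0.22. They then covered 8 and 4 genes, dim ones included, against 6 and 1 in the main fit, and EXPB3 itself stayed at -0.02. With a minimum of 250 the expansin-like median was 0.23, where EXLA2 was no longer tested. With an array left out, class medians ran from 0.049 to 0.12 for alpha-expansins, -0.24 to 0.20 for EXPB3, -0.23 to -0.038 for expansin-like genes, -0.17 to 0.11 for XTH, -0.017 to 0.22 for GH9 and -0.26 to -0.047 for CSL. Of the 19 members given on all arrays by rule, 7 changed direction when 1 array was left out and 0 under any other setting. Their log2 fold changes then ran from -0.15 to 0.013 for CSLC04, -0.017 to 0.29 for CSLC6, -0.24 to 0.20 for EXPB3, -0.36 to 0.0019 for GH9B7, -0.071 to 0.22 for GH9C2, -0.36 to 0.18 for XTH16 and -0.33 to 0.16 for XTH18. Of the members that kept their direction, EXPA9 ran from 0.049 to 0.21, XTH20 from 0.059 to 0.31 and XTH32 from 0.069 to 0.32 with an array left out. With a pseudocount of 1, 16 of 25 intervals lay inside 1.5-fold. The cause of these changes was not tested, and 2 arrays per group limit every value.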
